A study of Mus musculus with 24 samples.

Results

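The genes described here are the zinc finger protein genes of the table, chosen by symbol alone: ZNF, ZFP and ZBTB genes and the ZIC family, without the ZFP36 group, which binds RNA through another kind of finger. The rule found 127 of 7493 genes: 89 ZNF, 31 ZBTB and 2 ZFP genes and the ZIC genes, with 3 antisense rows among them. The rule uses the symbol and no measured value, though the group itself was chosen with earlier results of these data known. Transcript levels were measured by bulk RNA sequencing in brain, heart, aorta, lung, kidney, liver, stomach and spleen, with 3 libraries per tissue and 24 in all. Every library came from mice carrying SENCR-BAC, a bacterial artificial chromosome with the human gene of the long non-coding RNA SENCR, so no tissue had a counterpart without the transgene. The labels give no age, sex, strain or animal of origin. The comparison is therefore between tissues of transgenic mice. The p-values weigh a difference against the spread between libraries of the same tissue, pooled over all tissues. They do not measure the spread of a single tissue's 3 libraries.

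Most proteins of this kind carry C2H2 fingers, in which a pair of cysteines and a pair of histidines hold a zinc ion. A finger of this kind can read a few bases of DNA. ZBTB proteins add a BTB domain, which joins them to each other and to NCoR-type corepressors, and many ZNF proteins add a KRAB domain, which recruits heterochromatin factors. ZIC proteins are known from the developing neural tube and neural crest, and stay on in the adult cerebellum. A gene's level says nothing about how much of its protein sits on DNA.

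The table gives FPKM, fragments scaled to gene length and to the fragments counted in the library, and its symbols are human because the mouse reads were counted on a human genome build. A mouse gene is therefore seen only through the sequence it shares with its human counterpart, and levels are compared here between tissues within a gene and not between genes. The FPKM steps gave back read numbers for 7490 of 7493 genes (99.96%), with totals of 177909 to 613544 reads per library. These are the smallest whole numbers that keep a gene's ratios between libraries, so the true numbers could be larger. A gene seen in 1 library is always given 1 read. Liver had the shallowest libraries, with 177909 to 197756 reads. Of the tested marker genes, 6 of 6 were called higher in brain, 5 of 5 in heart, 3 of 3 in aorta, 1 of 1 in lung, 3 of 3 in kidney, 4 of 5 in liver and 2 of 2 in spleen; for stomach ATP4A alone was in the table, untested, with 0.918 to 4.85 FPKM in stomach and 0 elsewhere. Among markers of other tissues, the summed level of 5 heart markers was 925 to 1240 FPKM in lung libraries, against 48284 to 58576 FPKM in heart libraries, and 4 skeletal muscle markers summed to 10.4 to 45.1 FPKM in lung and 0.597 to 35.3 FPKM in stomach. None of 5 adipocyte markers was in the table, so adipocyte content could not be read from them. What part these other cells have in the members' levels was not tested. In whole tissues, fewer cells of a type and less RNA per cell cannot be told apart.

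Mouse genes could be assigned to 101 of the 127 members, 36 by symbol and 65 by synonym. In the longest coding frame of their GENCODE M21 transcripts, 97 of these 101 held at least 1 C2H2 pattern, counted here as 2 cysteines with 2 to 4 residues between them and 2 histidines with 3 to 5 between them, the pairs separated by 12 residues. The largest number was 33, in Zfp462, the mouse gene of ZNF462. The 4 genes without the pattern were those of ZBTB8OS, ZNF365, ZNF503 and ZNF703. The last finger of 4 mouse genes elevated in brain, Zic1, Zic4, Zic5 and Zbtb18, is shown 5′ to 3′ because the finger is what the members share, with the codons of the zinc-holding cysteines and histidines in capitals.

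Zic1, coding bases 1090 to 1152: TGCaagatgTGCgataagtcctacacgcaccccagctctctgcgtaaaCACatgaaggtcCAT

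Zic4, coding bases 817 to 885: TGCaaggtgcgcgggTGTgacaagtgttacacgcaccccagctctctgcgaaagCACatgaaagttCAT

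Zic5, coding bases 1534 to 1602: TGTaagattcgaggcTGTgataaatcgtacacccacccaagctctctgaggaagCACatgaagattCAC

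Zbtb18, coding bases 1429 to 1494: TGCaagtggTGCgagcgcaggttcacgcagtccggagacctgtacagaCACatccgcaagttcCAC

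From the first to the last match of the C2H2 pattern, 3 matches in each gene, Zic1, Zic2, Zic4 and Zic5 were 75.9% to 85.6% identical in pairs. Fingers with other spacing were not matched, so this stretch need not span every finger. The longest run of bases shared by any pair of coding frames was 20 to 42 bases. A short read from such a run could be placed on more than 1 ZIC gene. The split of reads among the ZIC genes may therefore be less certain than their sum. These runs are from mouse frames, whereas the reads were counted on a human build, and the placement of reads was not tested.

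Most members were weakly covered. The 127 members together held 73084 reads, and ZNF207, ZBTB18, ZNF706, ZNF148 and ZNF281 held 66.2% of them. Members took 0.546% to 1.03% of a library's reads, lowest in heart and highest in brain. Reads appeared in all 24 libraries for 24 members, while 19 members were seen in 1 library. The recovery gives each of these 19 a single read whatever its true number. Recovered reads were 10 or fewer for 49 members. Only 68 members passed the filter of at least 1 FPKM in at least 3 libraries and were tested. Those 68 had a median of 168.5 reads over all libraries, against 4 reads for the other 59. The filter divided the members by pattern number as well. The median was 4 patterns in the 59 tested members with a coding frame and 9 in the 42 that were not tested.

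Tissues were compared with limma on log2(FPKM + 1), each tissue against the mean of the other 7, over all 4260 genes that passed the filter. A gene was called where its Benjamini-Hochberg adjusted p was under 0.05 and its difference 1 or more in size, and elevated where it was called above each of the other 7 tissues. An overall difference among tissues was found for 48 of the 68 members (70.6%), against 77.6% of all genes tested. Called in at least 1 tissue were 43 members, with 50 higher and 42 lower calls. Of these, 22 members were called higher in some tissues and lower in others. The called members ZBTB33, ZFP62, ZNF580 and ZNF771 did not pass the test for any difference among tissues (limma adjusted p = 0.061, 0.21, 0.12 and 0.090). No share over all genes was computed for these counts, so they give no contrast with other genes. Elevated members numbered 9, against a background of 24.1% over all genes. ZIC1, ZIC2, ZIC4, ZIC5 and ZBTB18 were among those elevated in brain, ZNF106 in heart, ZNF608 in lung and ZBTB7C in stomach. Of all genes, 13.2% were elevated in brain, 1.64% in heart, 1.27% in lung and 1.2% in stomach. No member was elevated in aorta (background 1.64%), kidney (1.69%), liver (1.92%) or spleen (1.5%) by limma. A looser measure was an unadjusted limma p under 0.05 for a level above the mean of the other tissues. It took in 11 members in aorta, 14 in kidney, 7 in liver and 13 in spleen. That measure has no fold limit, and no share over all genes is given for it. It does not show how near a member came to being elevated.

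**Figure D1:**
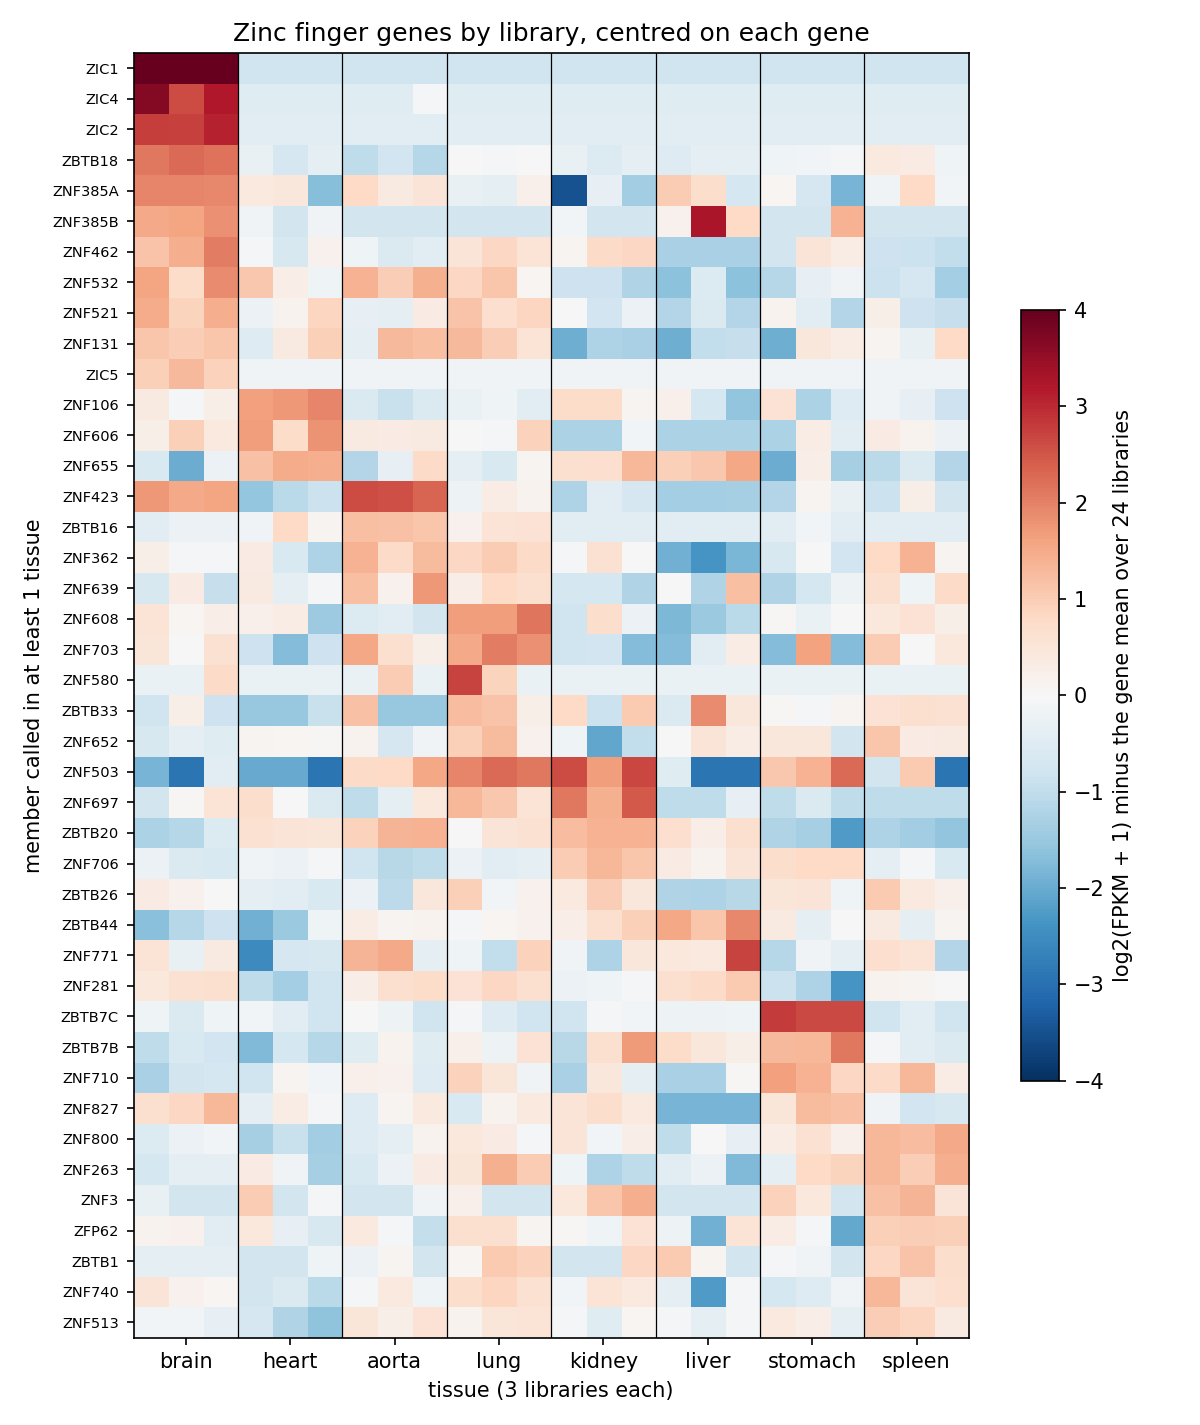
Rows are members called in at least 1 tissue and columns are libraries, 3 per tissue; colour gives log2(FPKM + 1) minus the gene's mean over the 24 libraries, with the scale ending at 4. ZIC1, ZIC2, ZIC4 and ZIC5 stand out in the brain columns alone, and ZNF503 has high values in kidney, lung and stomach.

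The share of members called was below that of all genes in every tissue and direction except for lower calls in liver; the difference in shares was not tested. In brain 14 members were higher (20.6%, background 23.9%) and 5 lower (7.35%, background 10.5%). In heart 3 were higher (4.41%, background 6.41%) and 10 lower (14.7%, background 17.4%). In aorta 6 were higher (8.82%, background 9.58%) and 2 lower (2.94%, background 8.19%). For lung, 8 were higher (11.8%, background 11.9%) and none lower by limma (background 3.64%). However, 6 had an unadjusted p under 0.05 for a lower level, and voom on the recovered reads called 6. No share over all genes is given for either of these lung counts. Kidney had 5 higher (7.35%, background 9.77%) and 5 lower (7.35%, background 8.12%), and liver 4 higher (5.88%, background 9.81%) and 12 lower (17.6%, background 17.3%). Stomach had 5 higher (7.35%, background 7.65%) and 3 lower (4.41%, background 5.87%), and spleen 5 higher (7.35%, background 11.5%) and 5 lower (7.35%, background 13.5%).

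These splits moved with the scaling between libraries. Rescaling FPKM to TPM moved the median difference over all genes by 0.51 in brain, -0.32 in liver, 0.17 in kidney, -0.16 in aorta, 0.14 in lung and -0.12 in both spleen and stomach, and median-ratio factors moved it by 0.35 in heart, -0.18 in lung, -0.14 in kidney, 0.13 in brain and -0.11 in both spleen and stomach. With TPM the higher and lower counts were 16 and 2 in brain, 5 and 5 in aorta, 4 and 7 in spleen, and 5 and 6 in stomach. Under median-ratio factors they were 5 and 5 in heart, 6 and 0 in aorta, 5 and 8 in kidney, and 3 and 5 in spleen. No share over all genes is given under these scalings, so the counts give no contrast with other genes.

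**Figure D2:**
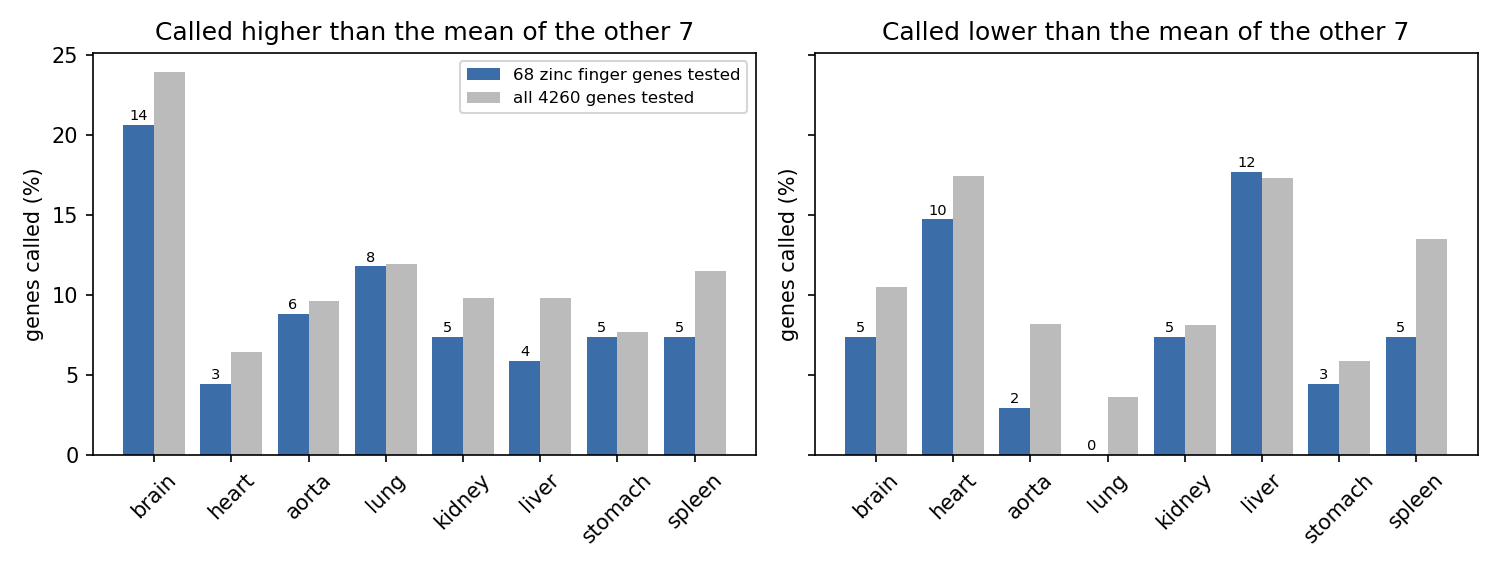
Bars give the percentage of the 68 zinc finger genes tested (blue) and of all 4260 genes tested (grey) called higher (left panel) or lower (right panel) in each tissue against the mean of the other 7; numbers above the blue bars count members. Brain had the most higher calls, 14 members, and liver the most lower calls, 12 members.

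ZIC1, ZIC2, ZIC4 and ZIC5 were read in brain almost alone. ZIC1, a neural transcription factor needed for the cerebellum, had 68.7, 79.3 and 82.0 FPKM in the 3 brain libraries, against 0 in all 21 libraries of the other tissues. Its 367 reads all lay in brain, which made it at least 505-fold higher there, set against a floor of 3 reads over the 21 other libraries. The difference was 6.27 ± 0.11 (SE; adjusted p = 1.9e-19). This was the largest difference of any member in any tissue.

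ZIC4, which lies beside ZIC1 and is lost with it in a human cerebellar malformation, had 16.6, 7.52 and 11.8 FPKM in brain, against 1 read in aorta replicate 3 (0.324 FPKM) and 0 elsewhere. ZIC2, a holoprosencephaly gene in humans, had 8.13, 7.87 and 10.2 FPKM in brain. ZIC5 stood on 11 reads in brain, with 1.15, 1.73 and 1.12 FPKM. ZIC2 and ZIC5 were listed at 0 in the other 21 libraries, so they were at least 64.7-fold and 15.1-fold higher in brain on the same floor, which covers counting error only. Differences were 3.62 for ZIC4 (adjusted p = 1.1e-14), 3.28 for ZIC2 (6.6e-17) and 1.21 for ZIC5 (6.9e-11). Each held in every alternative tried. However, ZIC1, ZIC2, ZIC4 and ZIC5 passed the filter through the brain libraries alone. Being tested thus already required 1 FPKM or more in each brain library, and the p-values and alternatives are no independent support.

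**Figure D3:**
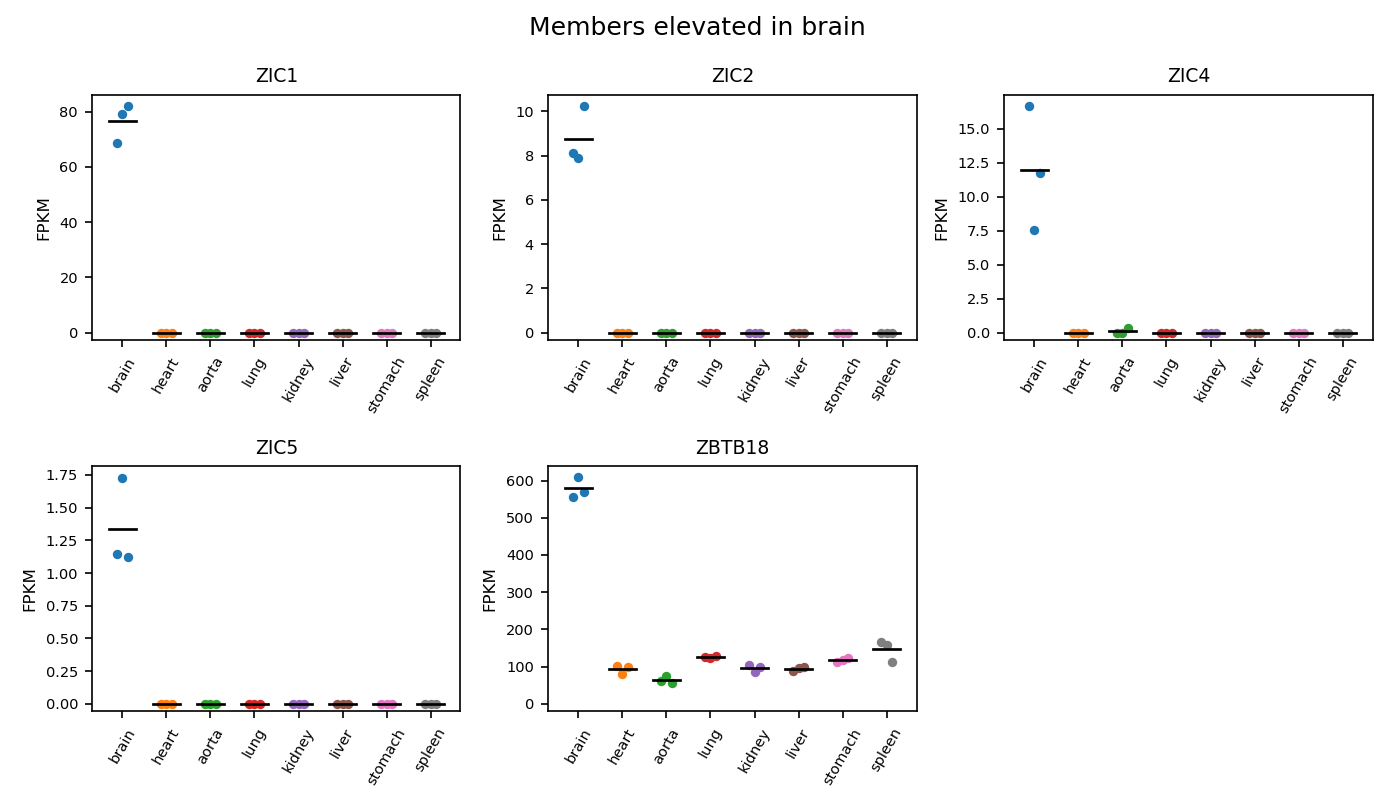
FPKM (y axis, linear and scaled to each gene) by tissue for 5 members elevated in brain; dots are libraries and lines are tissue means of 3. The ZIC genes shown lie at 0 outside brain except for 1 aorta library of ZIC4, while ZBTB18 was present everywhere and ran from 555.9 to 610.7 FPKM in brain.

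In the mouse genome these ZIC genes sit in pairs. Zic1 (chr9:91358058-91365768, GRCm38.p6) and Zic4 (chr9:91365631-91389351) are on opposite strands and their RefSeq records overlap by 138 bases, while Zic5 (chr14:122459160-122465658) and Zic2 (chr14:122475384-122480328) are 9725 bases apart. Whether counting used the strand is unknown, so reads from the shared end of Zic1 and Zic4 cannot be told apart. Promoter windows of Zic1 and Zic4 are shown from 250 bases before to 50 bases after a RefSeq start, 5′ to 3′ on the gene's strand. GC boxes (GGGCGG or CCGCCC) are in capitals. The Zic4 window begins at base 91368722, inside the record that begins at 91365631. It therefore belongs to a start further downstream and not to the end shared with Zic1.

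Zic1, chr9:91365719-91366018, GRCm38.p6, minus strand: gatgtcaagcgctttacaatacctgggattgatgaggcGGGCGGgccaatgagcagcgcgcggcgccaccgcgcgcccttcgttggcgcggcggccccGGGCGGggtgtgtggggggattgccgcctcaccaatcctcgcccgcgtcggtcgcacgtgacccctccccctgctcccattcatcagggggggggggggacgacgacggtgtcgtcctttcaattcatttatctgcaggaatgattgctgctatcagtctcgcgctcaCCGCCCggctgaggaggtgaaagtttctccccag

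Zic4, chr9:91368722-91369021, GRCm38.p6, plus strand: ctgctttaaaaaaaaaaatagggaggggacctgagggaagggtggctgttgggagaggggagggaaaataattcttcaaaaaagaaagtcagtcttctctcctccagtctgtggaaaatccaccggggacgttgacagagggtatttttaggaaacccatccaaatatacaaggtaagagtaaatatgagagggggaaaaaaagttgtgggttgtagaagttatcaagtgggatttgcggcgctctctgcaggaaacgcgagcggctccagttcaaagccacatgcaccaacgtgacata

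Zbtb18, chr1:177442101-177442400, GRCm38.p6, plus strand: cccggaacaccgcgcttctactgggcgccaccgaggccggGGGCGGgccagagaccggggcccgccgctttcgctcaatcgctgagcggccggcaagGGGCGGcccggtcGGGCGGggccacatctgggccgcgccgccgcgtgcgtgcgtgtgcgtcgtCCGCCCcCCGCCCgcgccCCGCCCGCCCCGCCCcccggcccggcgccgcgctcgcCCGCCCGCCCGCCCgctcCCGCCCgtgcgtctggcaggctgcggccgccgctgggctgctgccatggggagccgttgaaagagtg

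The Zic1 window held 3 GC boxes, the Zic4 window none of these letters, and the first of several Zbtb18 starts, added because that gene is read in every tissue, held 12 with overlaps counted. Searched on both strands with overlaps allowed, the GC box was in 66.4% of the 116 promoters of 82 members and in 35.6% of all 32817 promoters of that length. CCAAT (or ATTGG) was in 31.9% of member promoters, against 37.4% of all, and TATAAA (or TTTATA) in 9.48%, against 13.6%. The median number of CG pairs was 22.5 in member promoters and 7 in all. GC boxes and CG pairs are made of the same letters, so these counts are not independent. Members had to be read in these libraries to be in the table, whereas the set of all promoters was not limited to its genes. The shares therefore give no contrast of zinc finger genes with the other genes of the table.

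ZBTB18 (RP58), a repressor needed for cortical neurons to mature in mice, was the most abundantly read member with a large difference. Its levels were 555.9, 610.7 and 569.9 FPKM in brain. The other 21 libraries ran from 57.2 to 167.0 FPKM, with 7198 of its 12932 reads in brain. No library outside brain came near the brain values. The difference was 2.49 ± 0.11 (SE; adjusted p = 2.5e-14), and brain exceeded spleen, the next tissue, by 2.00 (1.3e-10). ZBTB18 was lowest in aorta (62.8, 74.2 and 57.2 FPKM), at -1.11 (8.2e-08), which median-ratio factors moved to -0.97 and the omission of aorta replicates 1 and 3 together to -0.90.

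A further 8 members rose in brain without being elevated there. ZNF385A, which binds double-stranded RNA and p53, had 42.5, 42.9 and 41.6 FPKM in brain, above all other libraries, whose highest was 22.0 FPKM in liver (difference 2.22, adjusted p = 0.0010). Its paralogue ZNF385B averaged 4.15 ± 0.603 FPKM in brain (SD, n = 3; difference 1.87, 0.0011), though liver replicate 2 reached 15.0 FPKM. ZNF462, linked to a human developmental syndrome, is the gene with 33 C2H2 patterns. It had 4.35, 5.64 and 9.10 FPKM in brain, against at most 3.35 FPKM in the other 21 libraries (1.76, 3.9e-06). These 3 genes had reads in several tissues besides brain.

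ZNF521, a regulator of neural and blood progenitors, averaged 4.56 ± 1.22 FPKM in brain (SD, n = 3), against 3.20 ± 0.682 FPKM in lung, the next tissue (difference against all others 1.47, adjusted p = 2.5e-04). ZNF532 averaged 7.56 ± 3.17 FPKM in brain, close to 6.46 ± 1.22 FPKM in aorta (1.60, 2.0e-04). ZNF423 is described with aorta below. The calls for ZNF131 (1.22, 0.024) and ZNF827 (1.07, 0.0013) were lost when brain libraries were left out: ZNF131 without any of the 3 (adjusted p 0.069 to 0.084, though the differences were 1.20 to 1.26) and ZNF827 without brain replicate 3 (0.87).

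Lower in brain were ZNF503 (-1.98, adjusted p = 0.0090), ZBTB44 (-1.38, 3.7e-04), ZBTB20 (-1.13, 9.2e-05), ZNF655 (-1.08, 0.034) and ZNF710 (-1.06, 0.016). Only the ZBTB44 call held in every alternative tried. Without brain replicate 2, ZNF503 was at -1.39 (0.12) and ZNF655 at -0.55 (0.36). Without brain replicate 1, ZBTB20 was at -0.99, ZNF710 at -0.86 and ZNF655 at -1.25 (0.052). Without stomach replicate 2 ZNF655 was at -0.98, and without kidney replicate 2 or liver replicate 3 ZNF710 was at -0.99. Of 14 tested members with a known neural role, 10 were higher and 2 lower in brain. Over all genes the shares were 23.9% higher and 10.5% lower. The median difference was 1.61 for these members, against -0.02 over all genes. The list was drawn up with earlier results of these data known. It includes the ZIC genes, and those described above passed the filter through brain alone. The summed neuron markers were 6085 to 7315 FPKM in brain libraries, against at most 42.7 FPKM in any library of another tissue, and their part in these differences was not tested.

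Among the ZBTB genes 16 of 31 were tested, and they did not share a tissue. ZBTB20, which silences fetal liver genes after birth and patterns the hippocampus, had 24.8, 27.8 and 28.0 FPKM in kidney and 19.7, 27.0 and 28.2 FPKM in aorta. Its values were 1.29 to 3.82 FPKM in stomach, 2.697 to 3.67 FPKM in spleen and 3.54 to 6.58 FPKM in brain. Heart, liver and lung lay between at 10.2 to 16.7 FPKM. Kidney and aorta lay above every other library, and this pair (aorta minus kidney, -0.12, adjusted p = 0.82) did not differ beyond their spread. Differences were 1.53 in kidney (7.5e-06), 1.39 in aorta (2.3e-05), -1.83 in stomach (1.2e-06) and -1.61 in spleen (3.1e-06).

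ZBTB16 (PLZF), a regulator of innate-like T cells and germ cells, was low but steady in aorta at 2.09, 2.02 and 1.91 FPKM. Every other library was below that, with at most 1.31 FPKM in heart, and kidney, liver and spleen were listed at 0 (aorta difference 1.34, adjusted p = 3.7e-07). ZBTB44 had 16.7, 11.9 and 21.7 FPKM in liver, above all other libraries, whose highest was 10.6 FPKM in kidney (1.74, 4.8e-05). In heart ZBTB44 was at -1.37 (6.4e-04), and just short of the fold without heart replicate 1.

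The related pair ZBTB7B and ZBTB7C was highest in stomach. ZBTB7C had 11.0, 9.69 and 9.63 FPKM in stomach, and 87 of its 114 reads. Each of the other 21 libraries had at most 0.751 FPKM, a clear gap (difference 3.07 ± 0.20 SE, adjusted p = 6.7e-10). ZBTB7C therefore passed the filter through stomach alone, which its p-value does not allow for. ZBTB7B (ThPOK), which directs thymocytes to the CD4 lineage, had 7.36, 7.65 and 13.8 FPKM in stomach, but kidney replicate 3 reached 10.1 FPKM, so those groups overlapped (1.81, 9.5e-04). ZBTB7B was lower in heart (-1.38, 0.0052), at -1.09 (0.061) without heart replicate 1. ZBTB33 (Kaiso), which binds methylated DNA, had 1 read in heart (-1.51, 0.020) and lost the call without heart replicate 1 (-1.40, 0.084) or replicate 2 (-1.40, 0.084). ZBTB26 was lower in liver, with 5.99 to 6.64 FPKM (-1.35, 1.9e-04).

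ZBTB1, needed for lymphoid development in mice, averaged 2.12 ± 0.508 FPKM in spleen (SD, n = 3) on 18 reads, against a mean of 1.77 FPKM in lung (spleen difference 1.02, adjusted p = 0.015). The call lay near the threshold: it was at 0.90 (0.085) without spleen replicate 2 and was lost in 9 other alternatives. Of 13 listed genes with a lymphoid or myeloid role, 7 were in the table and 4 were tested. Among these 4, ZBTB1 gave the only call in spleen. Over all genes, 11.5% were called higher and 13.5% lower there. ZBTB16 was listed at 0 in spleen, ZBTB7B averaged 1.69 ± 0.498 FPKM and ZBTB25 was not called.

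The mesenchymal group held the strongest member of aorta. ZNF423, a factor of preadipocytes and of the developing cerebellum, had 21.6, 21.0 and 17.2 FPKM in aorta and 11.2, 9.57 and 9.90 FPKM in brain. In the other 18 libraries it reached at most 3.46 FPKM, in lung. The differences were 2.87 in aorta (adjusted p = 5.1e-08) and 1.84 in brain (4.65e-06), and aorta exceeded brain by 0.90 (0.041), short of the fold needed for a call. ZNF423 was lowest in liver (-1.54, 7.3e-05) and heart (-1.32, 4.1e-04).

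Also higher in aorta were ZNF532 (1.44, adjusted p = 0.0011), ZNF362 (1.29, 8.2e-04) and ZNF639 (1.18, 0.021). One alternative left out aorta replicates 1 and 3 together, so that the spread of the lone replicate 2 was assumed to be that of the other tissues. There ZNF532 was at 1.16 (0.16), ZNF362 at 0.91 (0.21) and ZNF639 at 0.32 (0.76), while ZNF423, ZBTB20 and ZBTB16 stayed called. ZNF639 also lost its call without aorta replicate 1 (1.10, 0.090) or 3 (0.83, 0.18).

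ZNF503 and ZNF703 form a small family with an atypical finger, and neither held the C2H2 pattern; ZNF703 is amplified in human luminal breast cancer. ZNF503 was called in 6 of the 8 tissues, the most of any member. It had 45.1, 23.3 and 47.6 FPKM in kidney, 28.4, 35.2 and 31.7 FPKM in lung and 14.9, 18.8 and 35.8 FPKM in stomach. Heart had at most 0.876 FPKM, brain at most 4.73 FPKM and liver at most 4.48 FPKM. Kidney, lung, stomach and aorta thus lay above every library of heart, brain and liver, and kidney and lung did not differ beyond their spread (0.22, adjusted p = 0.93).

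The ZNF503 differences were 2.65 in kidney (adjusted p = 0.0017), 2.40 in lung (0.0040), 1.80 in stomach (0.030), -2.66 in heart (0.0012) and -2.41 in liver (0.0025). The stomach call was lost without any of the stomach libraries (0.053 to 0.17). ZNF503-AS2, an antisense row, had 16 reads in all; with the strand setting unknown, its reads and those of ZNF503 cannot be told apart. ZNF703 had 8.50, 12.8 and 10.6 FPKM in lung (2.05, 0.0042) and reached 9.07 FPKM in stomach replicate 2, with 0 in the other 2 stomach libraries. Its lower call in heart rested on 2 reads (-1.30, 0.047) and was lost in 23 of 31 alternatives, among them every one that left out a heart library (adjusted p 0.083 to 0.22).

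ZNF106, an RNA-binding protein whose loss in mice causes muscle and motor neuron degeneration, was the elevated member of heart. It had 17.0, 18.3 and 21.4 FPKM in heart, against at most 8.57 FPKM in the other 21 libraries. The groups did not overlap (difference 2.04 ± 0.31 SE, adjusted p = 2.6e-05), and heart exceeded kidney, the next tissue, by 1.25 (0.023). In lung, which carried heart and skeletal muscle markers, ZNF106 was 3.23 to 4.06 FPKM.

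ZNF606 (difference 1.59, adjusted p = 3.1e-04) and ZNF655 (1.56, 0.0039) also rose in heart. ZNF655 had 7.97, 10.1 and 9.89 FPKM in heart and 6.79, 7.33 and 10.6 FPKM in liver, so those tissues overlapped. Its liver call (1.36, 0.0095) was lost without liver replicate 3 (1.19, 0.063), its stomach call (-1.16, 0.039) without stomach replicate 1 (-0.68, 0.32) or 3 (-1.01, 0.16), and its spleen call (-1.07, 0.037) without spleen replicates 1, 2 or 3 (-1.01, -1.25 and -0.96; adjusted p 0.056 to 0.14) or stomach replicate 2 (-0.98).

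The 10 members lower in heart were led by ZNF503 and ZBTB33, given above, ZNF771 (-1.47, adjusted p = 0.035) and ZNF800 (-1.38, 3.8e-05; just short of the fold with median-ratio factors). ZNF771 was at -0.84 (0.30) without heart replicate 1. ZNF513 and ZNF281 were lower too, at -1.32 and -1.20, but at -0.78 and -0.66 with median-ratio factors, which raised the heart median by 0.35. Most of these genes had few reads in heart, from 1 for ZBTB33 to 156 for ZNF281.

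Lung had 1 elevated member. ZNF608 had 23.3, 23.5 and 32.6 FPKM in lung, against at most 11.4 FPKM in the other 21 libraries (difference 2.08 ± 0.30 SE, adjusted p = 2.3e-05). Lung exceeded spleen, the next tissue, by 1.41 (0.011). ZNF608 was lowest in liver, with 1.21 to 2.61 FPKM (-1.66, 1.3e-04).

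Other lung calls were smaller. ZNF697 (1.12, adjusted p = 0.0080) was at 0.96 (0.064) without lung replicate 1, ZNF263 (1.11, 0.020) at 0.89 (0.15) without lung replicate 2 and at 1.10 (0.076) without replicate 3, and ZNF521 (1.02, 0.011) at 0.90 (0.070) without lung replicate 1 and short of a call in 8 other alternatives. ZNF362 stood at the threshold (1.00, 0.0072) and went below it in 13 alternatives. ZNF580 (1.27, 0.010) rested on 6 reads, with 6.77, 1.26 and 0 FPKM in lung, and was at 0.48 (0.25) without lung replicate 1. The lung calls that held in every alternative were those of ZNF503, ZNF608 and ZNF703.

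ZNF706, a small protein that tempers Klf4 in mouse embryonic stem cells, was the most highly covered member with a kidney peak. It had 640.3, 791.8 and 684.9 FPKM in kidney, 516.9 to 543.9 FPKM in stomach and 345.7 to 448.4 FPKM in liver. Aorta was lowest, with 145.6 to 180.2 FPKM, below every other library. The difference was 1.32 in kidney (adjusted p = 4.1e-09) and -1.11 in aorta (6.1e-08; -0.97 with median-ratio factors). Kidney exceeded stomach by 0.39 (0.044), which is within the fold used for a call.

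ZNF697 had 7.65, 4.32 and 9.97 FPKM in kidney, against at most 4.003 FPKM elsewhere (difference 2.28, adjusted p = 7.8e-06). It had no read in spleen, where it was at least 8.73-fold lower than in the pooled reads of the other tissues. Against stomach, the next lowest tissue, spleen was lower by 0.14 (limma adjusted p = 0.90). ZNF3 had 12 reads in kidney (1.15, 0.0098) and was not called there without kidney replicate 2 (1.09, 0.051) or 3 (0.92, 0.090). Lower in kidney were ZNF385A (-1.98, 0.0048), ZNF131 (-1.71, 0.0042), ZNF652 (-1.23, 0.0056) and ZNF532 (-1.08, 0.011). Without kidney replicate 1 ZNF385A was at -1.10 (0.12), without replicate 2 ZNF652 at -0.73 (0.12), and without replicate 3 ZNF532 at -0.96 (0.071).

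**Figure D4:**
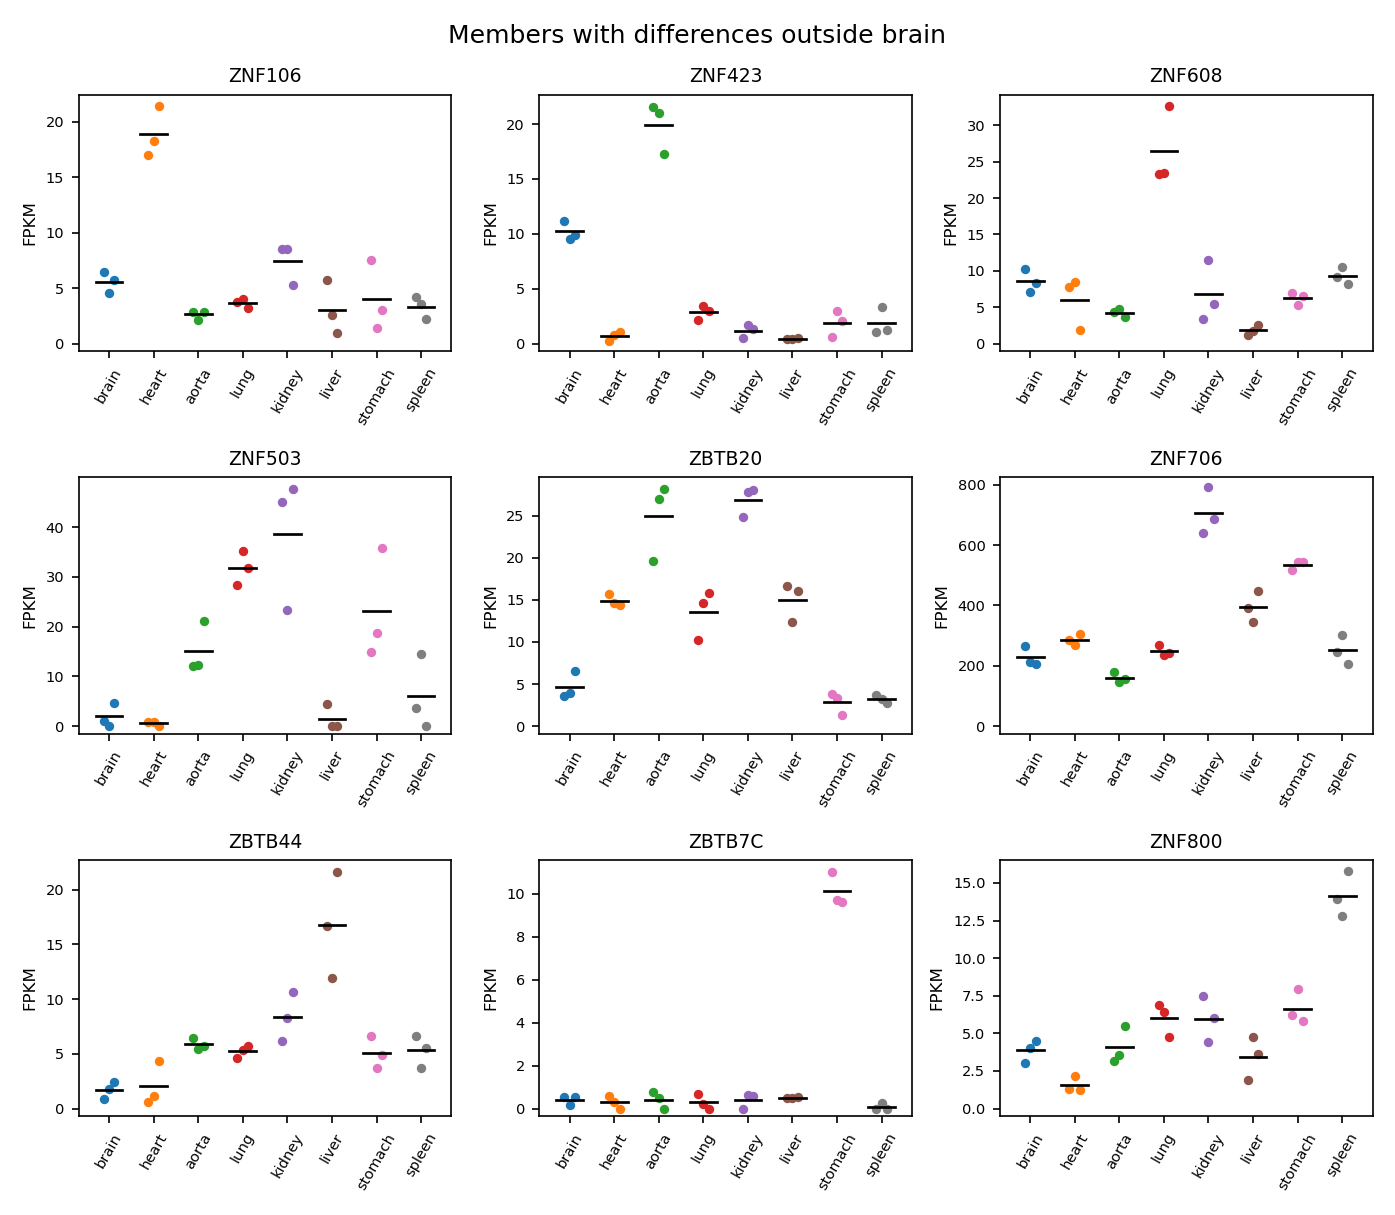
FPKM (y axis, linear, scaled to each gene) by tissue for 9 members with differences outside brain; dots are libraries and lines are means of 3. ZNF106, ZNF608 and ZBTB7C peak in 1 tissue (heart, lung and stomach), whereas ZNF423, ZNF503 and ZBTB20 are high in several.

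Liver had more lower calls than higher. ZNF362 had 3.35, 2.17 and 3.61 FPKM in liver, below all other libraries, whose lowest was 5.99 FPKM in heart (difference -2.33, adjusted p = 6.6e-07). ZNF827, which recruits the NuRD complex to telomeres in some human cancers, had no read in liver (limma adjusted p = 8.9e-07). It was at least 12.2-fold lower there than in the pooled reads of the other tissues. ZNF462 and ZNF606 also had no liver read, at least 7.55-fold and 2.12-fold lower than in those pooled reads. These bounds use the floor of 3 reads over the liver libraries, which were the shallowest, and do not hold against each tissue on its own. Against the next lowest tissue, liver was lower by 1.36 for ZNF827 (limma adjusted p = 0.0030), 0.40 for ZNF462 (0.40) and 0.39 for ZNF606 (0.60). Of the 12 lower calls, 10 held in every alternative.

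Of the 4 higher calls in liver, ZBTB44 alone held throughout. ZNF385B had 0.859, 15.0 and 1.85 FPKM in liver (difference 1.61, adjusted p = 0.0044) and was at 0.68 (0.13) without liver replicate 2. ZNF771 (1.35, 0.048) was at 0.59 (0.44) without liver replicate 3 and lost its call in 20 of 31 alternatives.

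ZNF800 had 13.9, 12.8 and 15.8 FPKM in spleen, against at most 7.93 FPKM in the other 21 libraries (difference 1.56, adjusted p = 1.0e-05); spleen exceeded stomach by 0.99 (0.014). ZNF263, a SCAN and KRAB protein, had 17.5, 13.6 and 19.2 FPKM in spleen (1.43, 0.0025) and reached 18.9 FPKM in lung, so the tissues overlapped. ZFP62 (1.11, 0.043) was even across the spleen libraries, 10.8 ± 0.186 FPKM (SD, n = 3), but lost its call in 15 of 31 alternatives, with adjusted p up to 0.12. ZNF3 was at 1.16 in spleen (0.0072) and 0.99 (0.057) without spleen replicate 2.

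In stomach ZNF710 averaged 5.25 ± 1.72 FPKM (SD, n = 3; difference 1.48, adjusted p = 0.0031) and ZNF827 averaged 6.41 ± 2.00 FPKM (1.12, 0.0022) and was at 0.97 without stomach replicate 2. ZNF281, a GC-rich binding factor of stem cells, was lowest in stomach at 34.4, 26.0 and 11.4 FPKM, with heart next at 23.96 to 35.7 FPKM. All other tissues had at least 53.3 FPKM, so stomach and heart together lay apart (stomach difference -1.69, 1.6e-06).

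Lower in spleen, besides ZBTB20 and ZNF697, were ZNF532 (-1.10, adjusted p = 0.0073; -0.90 and 0.069 without spleen replicate 3) and ZNF462 (-1.02, 0.0023), which crossed the threshold in 7 alternatives, at -0.96 without spleen replicate 3. ZNF462 values in spleen were 0.225 to 0.392 FPKM on 7 reads.

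Several of the best covered members had highest and lowest tissue means within 2.75-fold. ZNF207 (BuGZ), which loads BUB3 at kinetochores, had a highest tissue mean of 152.1 FPKM in spleen and a lowest of 80.3 FPKM in heart, a ratio of 1.89. ZNF148, a GC-rich binding factor, spanned 1.99-fold between brain and aorta, and ZNF326, which couples transcript elongation to splicing, 2.13-fold between kidney and heart. ZNF384 spanned 2.53-fold, ZNF609, a partner of the Integrator complex, 2.59-fold, and ZNF644, a partner of the histone methyltransferase G9a, 2.75-fold. All 6 passed the test for any difference among tissues without being called in a single tissue against the mean of the others. Between pairs of tissues, ZNF384 was called in 6, ZNF644 in 3, ZNF609 in 2 and ZNF326 in 1. ZNF207 and ZNF148 were called in no pair.

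**Figure D5:**
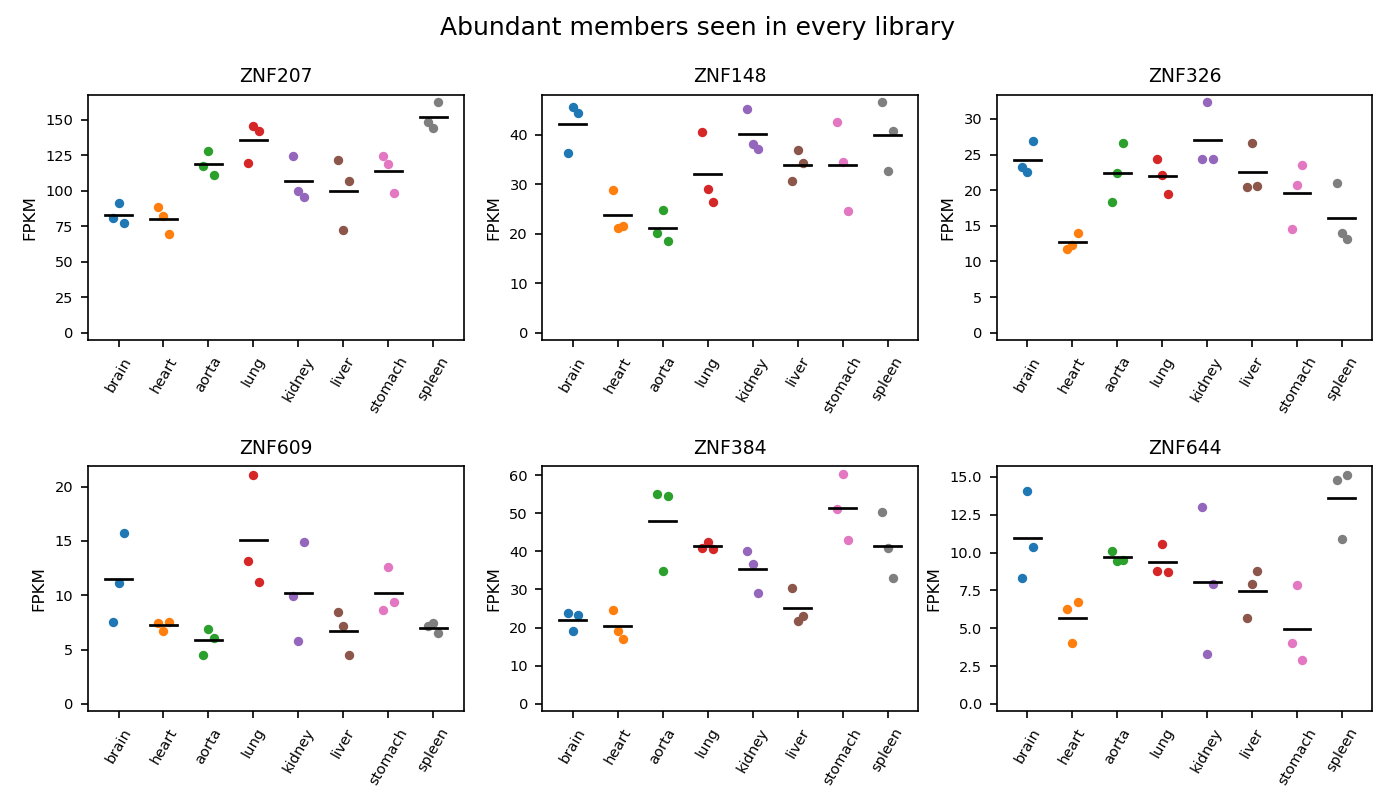
FPKM (y axis, linear from 0) by tissue for 6 well covered members called in no single tissue; dots are libraries and lines are means of 3. The highest and lowest tissue means differ by 1.89-fold for ZNF207 and by 2.75-fold for ZNF644.

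Of the 59 members that were not tested, 27 had at least 5 reads. The reads of 12 of these were spread over 5 or more tissues, as for ZBTB37 with 32 reads in all 8 tissues. The reads of 3 lay in brain alone: ZNF804A, a human schizophrenia-associated gene, with 9 reads, ZNF536, a repressor of neuronal differentiation, with 8, and ZNF365 with 5. They were picked out after their values were seen, and so few reads allow no comparison. ZNF711, a human intellectual disability gene, had 12 of its 16 reads in brain.

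Partner genes and other finger families were tested in the same fit. Among corepressor and heterochromatin partners of KRAB proteins, 6 of 13 were tested. CHD3, a NuRD remodeller, was higher in kidney (2.13, adjusted p = 5.4e-10) and brain (1.38, 5.3e-08) and lower in heart (-3.07, 1.1e-12), where it averaged 11.95 ± 3.27 FPKM (SD, n = 3), against a mean of 57.4 FPKM or more in each other tissue. ATRX was higher in lung (1.18), SETDB1 in spleen (1.16), and CBX5 was lower in heart (-1.26) and CBX1 in brain (-1.02). Of 15 BTB partners and relatives 11 were tested: PATZ1 was higher in lung (1.56) and spleen (1.55) and lower in liver (-2.31), and HIC1 was higher in heart (1.37) and lung (1.18) and lower in brain (-1.89).

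A list of 83 other C2H2 factors, 48 of them tested, was read in the same fit. In brain 12 were higher and 7 lower (background 23.9% and 10.5%), led by MYT1L (difference 5.45, adjusted p = 3.7e-18) and SCRT1 (4.72, 5.1e-18), both neuronal factors. Spleen had 12 higher and 9 lower (background 11.5% and 13.5%), led by BCL11A (5.06) and IKZF1 (4.45), factors of blood cell development. BCL11A was also higher in brain (4.15) and stomach (1.40), and was not elevated in spleen, whereas IKZF1 was. Aorta had 11 higher and 6 lower (background 9.58% and 8.19%), led by OSR1 (5.09) and PRDM6 (4.30), a vascular smooth muscle gene. Stomach had 7 higher and 5 lower (background 7.65% and 5.87%), with KLF4 at 4.99. Kidney had 7 higher and 12 lower (background 9.77% and 8.12%), with OSR2 and SALL1 at 3.38. Lung had 13 higher and 1 lower (background 11.9% and 3.64%), heart 1 and 11 (background 6.41% and 17.4%), and liver 4 and 15 (background 9.81% and 17.3%). ZIC1 at 6.27 was larger than any of these, and outside brain the members' largest difference was 3.07, for ZBTB7C in stomach.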

How the data were processed

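Per the labels, TRIzol was used for RNA and the VAHTS Universal V10 kit for libraries. The submitters' processing notes name fastp, HISAT2, HTSeq and the human build GRCh38.p13; for versions, annotation and strand setting the sources say nothing. The deposited values are FPKM, computed by the authors per gene and library. FPKM steps were turned back into the smallest fitting whole reads for 7490 genes (relative tolerance 1e-06), which gave totals of 177909 to 613544 reads. Floors of 3 reads cover counting error only.

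The filter asked for 1 FPKM or more in 3 or more libraries. Genes that passed were fitted on log2(FPKM + 1) with limma 3.58.1 (R 4.3.3, trend), with Benjamini-Hochberg adjustment over all of them. Each tissue was set against the mean of the other 7. Named were, per tissue, the 8 members with the largest higher calls and the 4 with the lowest lower calls. Elevated and ZIC members and members of the role lists were also named. Added after their values were seen were ZNF131, ZNF532 and ZNF710 in brain, ZNF281 and ZNF513 in heart and ZNF606 in liver. The well covered members called in no single tissue were added likewise. The fit was tested on simulated data. The members and lists were chosen with earlier results of these data known. Alternatives changed the pseudocount, filter, scaling, replicate block, test (voom on recovered reads) and libraries. RefSeq (GRCm38.p6) gave promoters and positions, and GENCODE M21 coding frames. The values of 1 member are not reported here; it stays in the counts.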

Additional observations from a re-analysis of the deposited data

How the results depend on the processing

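Of the 92 member calls, 49 held in all 31 alternatives, and none reversed. No share over all genes is given for the counts in this section, so they give no contrast with other genes. Counts that moved by more than 1.5 times were as follows. A pseudocount of 0.1 gave aorta lower 4, brain lower 2, heart higher 5, liver higher 2 and lower 22, lung lower 2, spleen higher 3 and lower 9, and stomach lower 5. TPM scaling gave aorta lower 5, brain lower 2, kidney higher 8, lung lower 1 and stomach lower 6. Median-ratio factors gave aorta lower 0, heart higher 5 and lower 5, kidney lower 8, lung higher 4 and spleen higher 3. Voom gave aorta lower 5, brain lower 9, heart higher 5, kidney higher 9, lung higher 13 and lower 6, and spleen lower 12. Without aorta replicates 1 and 3 together, aorta higher was 3 and spleen higher 3. Leaving out 1 library at a time gave ranges of 5 to 7 higher and 2 to 3 lower in aorta, 12 to 14 and 2 to 6 in brain, 3 to 3 and 5 to 11 in heart, 4 to 7 and 4 to 7 in kidney, 2 to 5 and 12 to 14 in liver, 6 to 9 and 0 to 0 in lung, 3 to 9 and 2 to 5 in spleen, and 4 to 5 and 2 to 6 in stomach, with 45 to 49 members that varied among tissues and 8 to 10 elevated. The libraries behind the moves beyond 1.5 times were brain 1 (brain lower 2) and brain 2 (3), heart 1 (heart lower 5), liver 3 (liver higher 2), spleen 3 (spleen higher 9, lower 2), aorta 3, kidney 1, kidney 2 and spleen 2 (spleen higher 3 each), stomach 2 (spleen lower 3, stomach lower 6). The cause was not tested.

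With the replicate number as a block, 14 members were higher and 5 lower in brain, 46 varied among tissues and 9 were elevated, and no count moved by more than 1.5 times. Deviations of same-numbered libraries from their tissue means correlated with a median of 0.024 (-0.059 to 0.13) over 84 pairs, and 20 of 24 libraries correlated best with their own number, a hint from the data and not the design. Depth limits the weak members: a count of 0 allows an expected count of up to 3 reads, and 13 tested members had under 50 reads in all.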
